A study of Homo sapiens with 16 samples.

Results

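Collagen chain genes were taken as all genes whose symbol has the form COL, a number, A and a number, which leaves out antisense and pseudogene names, with at least 16 reads summed over the 16 libraries. Such a symbol was carried by 44 of the 62754 genes counted, and all 44 reached 16 reads. The lowest were COL10A1 with 33 reads, COL6A5 with 40 and COL5A3 with 98, and no matching gene lay under the limit. A filter on low counts kept 42 of the 44 among the 24515 genes tested, and COL6A5 and COL10A1 were not tested.

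Collagens are secreted or membrane-bound proteins in which chains wind around each other into a stiff helix. Fibril-forming collagens build the ropes of connective tissue, network-forming collagens build the sheets of basement membrane under epithelia and around vessels, and fibril-associated collagens sit on the surface of fibrils. In pancreas the fibrils come mainly from mesenchymal and stellate cells, while islet cells rest on a basement membrane made largely by vessels.

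The cultures were islets differentiated in vitro from human embryonic stem cells of the HUES8 line (labelled HUES08, genotype WT), an established line, and bulk total RNA was sequenced. All 16 libraries carried the label batch 1. Each agent was added at stage 5 of the protocol and kept on until day 7 of stage 6. The 7 compound groups of 2 libraries each were colchicine (10 nM, a tubulin binder), epirizole (2.5 uM, an anti-inflammatory), Ly-294002 (120 nM, a PI3 kinase inhibitor), moxifloxacin (1.1 uM, an antibiotic), rottlerin (1.23 uM, used as a kinase inhibitor), vardenafil (125 nM, a phosphodiesterase inhibitor) and rimonabant (125 nM, a cannabinoid receptor antagonist), and the control group was 2 libraries of DMSO, the solvent. The labels do not say if a group's 2 libraries are separate differentiations. The p-values thus reflect only how far these libraries vary, and that variation may be technical. In RNA from whole cultures, fewer cells of a type and less RNA per cell cannot be told apart. Compounds were given at different doses, so values are set side by side without a comparison of structures.

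Library totals ran from 23294377 to 30701868 reads, and 3 reads, the floor used here, came to between 0.0977 and 0.129 CPM, a gene's reads scaled to a common library total. Against the label, islet hormone RNA was low: INS (insulin) ranged over 0.643 to 6.37 CPM and IAPP never passed 1 read in a library. Epithelial markers were plentiful, with KRT8 at 801 to 1153 CPM, and so was the fetal liver and yolk sac gene AFP at 2687 to 6702 CPM. The summed level of 10 endocrine markers, led by CHGA, ranged from 63.3 to 456 CPM and differed widely within groups, for example 93.9 and 456 CPM in the 2 moxifloxacin libraries. All 16 genes of a mesenchyme marker list were tested, and their sum ranged from 572 to 1082 CPM, led by FBN1 and TAGLN (medians 240 and 141 CPM). Some of the 16 were low, with medians of 2.34 CPM for THY1, 0.566 for TWIST2, 0.217 for FAP and 0.146 for TCF21. FAP and TCF21 each had a library with 0 reads. Endothelial markers were low, with medians of 11.4 CPM for EGFL7, 1.35 CPM for KDR, 0.900 CPM for VWF, 0.687 CPM for PECAM1 and 0.274 CPM for CDH5, and CLDN5 had at most 1 read. The Schwann cell markers SOX10 and S100B reached at most 6 and 2 reads, and FOXD3 had no read.

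Collagen genes together took between 0.608% of reads (vardenafil 2) and 0.836% (rimonabant 2). The 5 most read members held a median of 53.4% of collagen reads and the top 10 held 77.9%. Fibril-forming genes made up a median of 42.9% and the basement membrane genes of type IV made up 32.5%. By median over libraries 17 members passed 100 CPM, 27 passed 10 CPM and 7 were under 1 CPM.

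Per length, COL3A1 (type III, the fibril of vessel walls and soft organs) had the highest median level of all 44 at 508 TPM, a unit that scales reads by gene length and library, here over union exon lengths. COL2A1, the main fibril of cartilage, followed at 442 TPM, and the ranges of the 2 genes over libraries overlapped, 263 to 766 TPM and 344 to 631 TPM. COL18A1, a basement membrane proteoglycan and the source of endostatin, had a median of 233 TPM, with COL4A2 at 215 TPM, COL4A1 at 197 TPM and COL4A5 at 151 TPM. Each of these 4 overlapped its neighbour in the order in range over libraries, and COL4A2, for example, spanned 170 to 252 TPM. With the longest transcript as the length, COL4A2 came first at 502 TPM and COL3A1 second at 489 TPM, and 9 of the top 10 were shared by both lengths. The fibril genes of type I, found in skin, bone and tendon, had medians of 148 TPM (COL1A2) and 109 TPM (COL1A1). COL14A1, a fibril-associated chain of soft connective tissue, had 150 TPM, COL5A2, a chain that starts fibrils, 130 TPM, and COL6A1, of the beaded filaments around cells, 123 TPM.

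**Figure D1:**
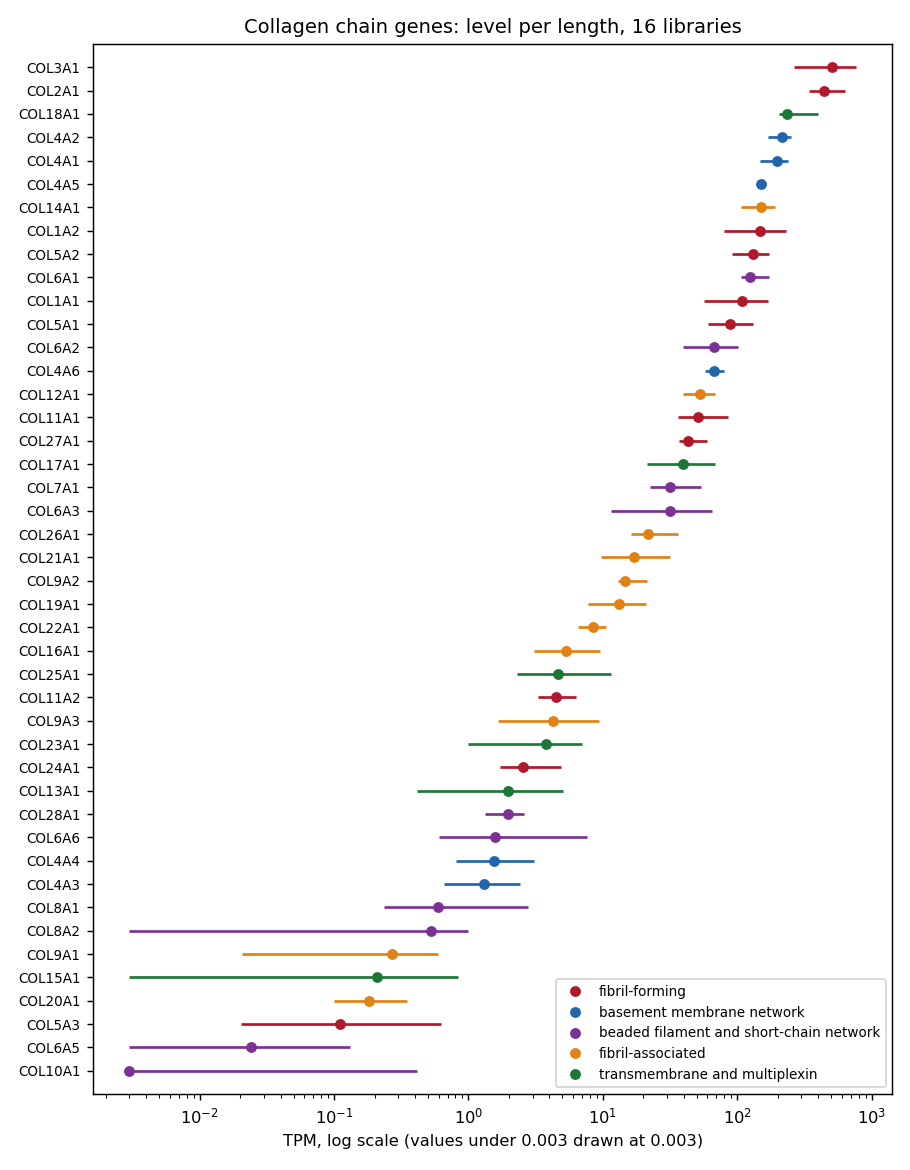
Level per length of the 44 collagen chain genes. The x axis is TPM on a log scale over union exon lengths, points are medians and lines run from the lowest to the highest of 16 libraries, coloured by collagen class. COL3A1 (508 TPM) and COL2A1 (442 TPM) lead, and COL6A5 and COL10A1 lie at the bottom.

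Other genes of cartilage were at lower levels than COL2A1, and some were not detected. COL9A2, a chain of the type IX collagen that coats cartilage fibrils, had a median of 15.1 CPM, while its partners COL9A3 and COL9A1 had 5.07 and 0.488 CPM. COL11A1, which is built into cartilage fibrils, had a median of 112 CPM and COL11A2 had 7.61 CPM. COL10A1, a marker of enlarged chondrocytes, had a median of 0 and at most 12 reads. Of 12 chondrocyte markers, UCMA had no read, EPYC at most 4 and CNMD at most 7, and the cartilage matrix genes ACAN and COMP reached at most 0.820 and 0.515 CPM. MATN3 had 3.97 to 7.26 CPM, SNORC 2.72 to 4.56 CPM, HAPLN1 0.707 to 5.80 CPM and MATN1 0.138 to 0.889 CPM. The transcription factors SOX9, SOX5 and SOX6, which many epithelia and nerve cells also express, were present at medians of 57.2, 28.6 and 42.6 CPM. The notochord, another tissue rich in type II collagen, is marked by TBXT and NOTO, which had at most 4 and 1 reads. The other 4 genes of the notochord list, which epithelia also express, were present, with medians of 77.0 CPM for SHH, 23.8 CPM for FOXA2, 1650 CPM for CD24 and 918 CPM for KRT8. Which cells made the COL2A1 RNA was not tested.

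COL2A1 was higher with colchicine and with rimonabant than with DMSO. Its level was 997 and 960 CPM in the colchicine libraries, 885 and 1038 CPM in the rimonabant libraries, and 555 and 534 CPM in the DMSO libraries. Rottlerin gave 771 and 860 CPM, moxifloxacin 725 and 866 CPM, epirizole 768 and 664 CPM, Ly-294002 622 and 649 CPM and vardenafil 588 and 618 CPM. Every compound library stood above both DMSO libraries. With TMM scaling the group means were 983 ± 35.8 CPM with colchicine, 939.7 ± 75.5 CPM with rimonabant and 553 ± 15.3 CPM with DMSO (SD, n = 2 each). The log2 difference from DMSO passed the test in 2 of the 7 comparisons, at 0.83 (SE 0.10, edgeR adjusted p = 0.00993) for colchicine and 0.76 (SE 0.10, edgeR adjusted p = 0.0120) for rimonabant. In the other comparisons it did not pass: 0.57 for rottlerin (edgeR adjusted p = 0.0591), 0.51 for moxifloxacin, 0.37 for epirizole, 0.20 for Ly-294002 and 0.13 for vardenafil. A joint edgeR test of all 7 compounds gave COL2A1 an adjusted p of 0.0533 and called 0 collagen genes, against 0.00408% of all genes tested. At an unadjusted p under 0.05 the joint test held 11 collagen genes, against 12.9% of all genes, and DESeq2 called 11, with 1217 over all genes. All 7 comparisons use the same 2 DMSO libraries, so they are not independent of each other.

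**Figure D2:**
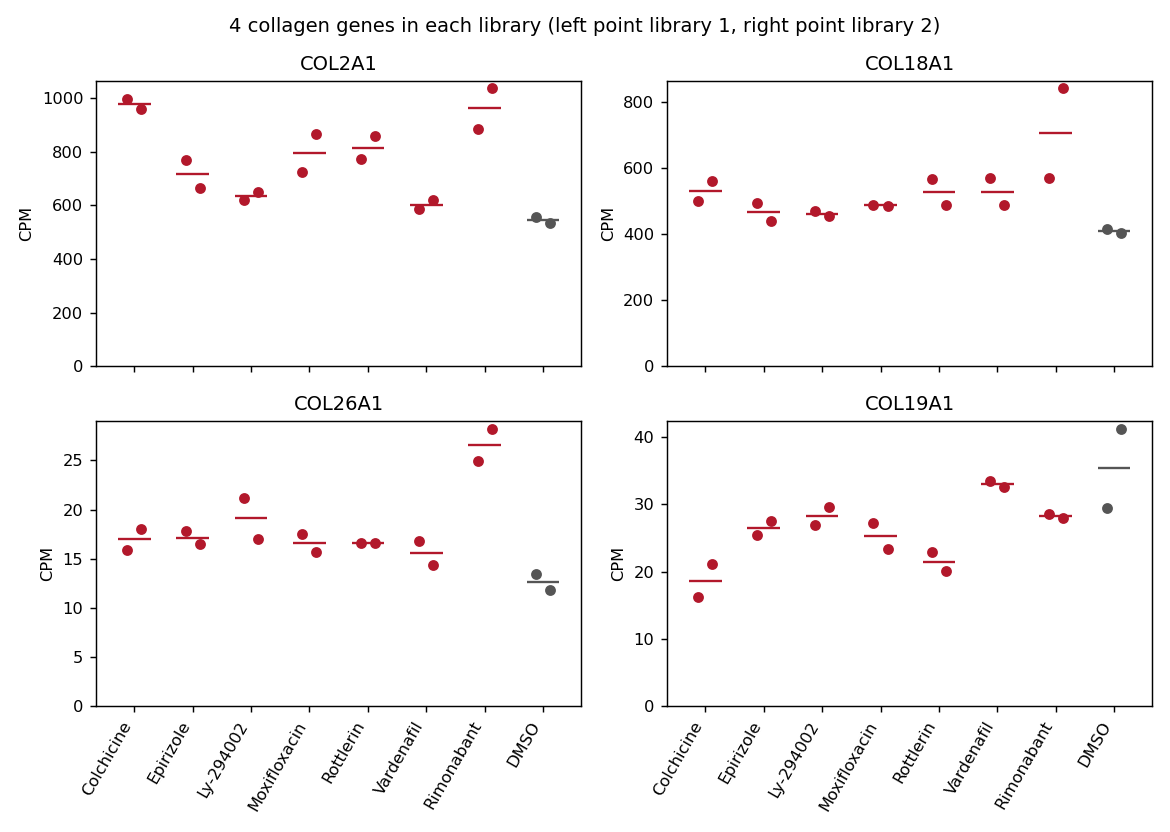
COL2A1, COL18A1, COL26A1 and COL19A1 in CPM (y axes) for the 7 compounds and, at the right, DMSO. Each point is a library and each bar the mean of a group. All 14 compound libraries lie above both DMSO libraries for COL2A1, COL18A1 and COL26A1, and 11 lie below both for COL19A1.

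Other members had the same order of libraries. COL18A1 and COL26A1 were also above both DMSO libraries in 14 of 14 compound libraries, which makes 3 of 42 tested members against 4.06% of all genes tested. COL15A1, a basement membrane relative of COL18A1, was below both in 14 of 14, which makes 1 of 42 against 2.80%. COL15A1 had 0 to 26 reads in the compound libraries, against 31 and 24 in the DMSO libraries, so its order rests on few reads. COL8A1, a short-chain collagen of vessel walls and the cornea, was below both in 13 of 14, with rimonabant 1 the exception at 6.67 CPM, against 3.99 and 3.02 CPM in DMSO. In rimonabant 2 COL8A1 was 0.547 CPM, a 12.2-fold gap within 1 group. COL2A1, COL18A1 and COL26A1 have transcript GC of 62.3%, 67.2% and 64.2%. The DMSO libraries had the lowest GC slopes of the 16, -0.35 and -0.42, a measure explained below. The part of GC content in the order of libraries was not tested.

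With the mean of the 7 compounds set against DMSO, edgeR called 0 collagen genes and 0% of all genes, with 10 collagen genes at an unadjusted p under 0.05, against 16.6% of all genes. DESeq2 called 4, with 714 over all genes. The edgeR log2 differences were 0.48 for COL2A1, 0.49 for COL26A1, 0.33 for COL18A1 and -0.49 for COL19A1. Without rimonabant 1 they were 0.50, 0.51, 0.37 and -0.49. Across 23352 genes Spearman's rho between GC content and the mean difference of the 7 compounds was 0.44. The part of GC content in these values was not tested.

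Colchicine changed 2 of the 42 tested members, against 0.196% of all genes called. COL2A1 rose, against 0.126% of all genes called higher, and COL19A1 fell, against 0.0693% called lower. COL19A1, a fibril-associated chain found in basement membrane zones, had 16.2 and 21.1 CPM with colchicine, against 29.5 and 41.2 CPM with DMSO, and the groups did not overlap. The log2 difference was -0.94 (SE 0.16, edgeR adjusted p = 0.0401). Rottlerin had the next lowest COL19A1, 22.8 and 20.1 CPM, a log2 difference of -0.73 that missed the threshold (edgeR adjusted p = 0.0718). Vardenafil libraries, at 33.5 and 32.6 CPM, lay between the 2 DMSO values, and over all compounds 11 of 14 libraries lay below both and 0 above. The 250 bases before the RefSeq start of COL19A1 are shown because it fell with colchicine, for comparison with those of COL26A1, which rose with rimonabant. They lie at chr6:69866306-69866555 (GRCh38.p14, plus strand). Capitals would mark a GC box, spelled GGGCGG, a box spelled CCAAT, or a TATA box, spelled TATAAA, on either strand, and none of them occurs there.
COL19A1: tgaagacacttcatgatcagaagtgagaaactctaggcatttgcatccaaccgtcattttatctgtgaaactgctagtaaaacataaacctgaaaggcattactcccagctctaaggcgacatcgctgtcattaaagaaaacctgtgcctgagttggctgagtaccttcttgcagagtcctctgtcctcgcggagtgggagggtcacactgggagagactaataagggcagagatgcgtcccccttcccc

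Beyond these 2, most collagen genes had lower values with colchicine without passing the test. The log2 difference was below 0 for 28 of 42 members, against 51.2% of all genes, with a median of -0.30 over members and -0.01 over all genes. Both colchicine libraries were below both DMSO libraries for 22 members, against 24.4% of all genes, and above both for 9, against 25.7%. By class, 10 of 11 fibril-forming members, 7 of 8 beaded filament and short-chain members and 5 of 6 transmembrane and multiplexin members were below 0, while all 6 type IV members were above 0. At an unadjusted p under 0.05 there were 19 members, against 17.5% of all genes.

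COL1A1 was among the fibril genes with lower values. It had 186 and 140 CPM with colchicine, against 323 and 268 CPM with DMSO, a log2 difference of -0.87 that did not pass. COL6A3, the long chain of beaded filaments, had 72.7 and 70.6 CPM with colchicine, against 186 and 177 CPM with DMSO, a log2 difference of -1.36 (SE 0.49, edgeR adjusted p = 0.194). The transmembrane chains COL23A1 and COL13A1 had log2 differences of -1.74 and -1.88, from low levels. COL6A6 had -2.42, from 10.9 and 16.7 CPM with DMSO. COL3A1 had 680 and 863 CPM with colchicine, against 992 and 915 CPM with DMSO, a log2 difference of -0.32. In the mesenchyme marker list 14 of 16 genes were also below 0 with colchicine, with a median of -1.01 and 0 called. The summed list was 779 and 781 CPM with colchicine, against 900 and 830 CPM with DMSO. The part of this in the collagen values was not tested.

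The colchicine calls rest on few libraries. Without any 1 of the 2 colchicine or 2 DMSO libraries edgeR called 0 collagen genes, the adjusted p of COL2A1 ranging from 0.0509 to 0.360 while its log2 difference stayed between 0.80 and 0.88. For COL19A1 the edgeR adjusted p ranged from 0.0527 to 0.477 and the log2 difference from -1.15 to -0.66, and leaving out any 1 Ly-294002 or vardenafil library also ended its call. With an offset per library for GC content neither passed, COL2A1 at 0.58 (edgeR adjusted p = 0.0631) and COL19A1 at -0.86 (edgeR adjusted p = 0.0615), and across all genes rho between GC content and the colchicine difference was 0.35.

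For rimonabant edgeR called 3 of 42 tested members, COL2A1, COL26A1 and COL18A1, all higher. Of all genes 7.80% were called in either direction and 5.03% higher, so the count of members was near the share over all genes. COL26A1, listed here with the fibril-associated genes for want of a class of its own, had 24.9 and 28.2 CPM with rimonabant, against 13.5 and 11.8 CPM with DMSO, a log2 difference of 1.02 (SE 0.15, edgeR adjusted p = 0.0120). Its remaining compound libraries ran from 14.3 to 21.2 CPM, so the 2 rimonabant libraries were the highest of the 16. COL18A1 had 570 and 842 CPM with rimonabant, against 416 and 405 CPM with DMSO, a log2 difference of 0.72 (SE 0.13, edgeR adjusted p = 0.0120). The groups did not overlap, and rimonabant 2 was far above its partner and above every other library. The 250 bases before the RefSeq start of COL26A1, at chr7:101362625-101362874 (GRCh38.p14, plus strand), hold none of the same 3 motifs.
COL26A1: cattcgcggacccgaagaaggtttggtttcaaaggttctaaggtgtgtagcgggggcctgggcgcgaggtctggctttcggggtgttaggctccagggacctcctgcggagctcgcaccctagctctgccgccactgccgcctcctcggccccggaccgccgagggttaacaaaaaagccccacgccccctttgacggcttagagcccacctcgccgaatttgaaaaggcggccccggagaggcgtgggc

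These sequences can be read against the whole table. In RefSeq windows of 250 bases before and 50 after a start, the GC box letters were in 24 of 44 windows of collagen genes, or 54.5%, against 45.0% of 35116 windows of all genes. The CCAAT letters were in 31.8% against 34.6%, and the TATA box letters in 18.2% against 11.5%. These windows belonged to 32 of the 44 members, some of which have several starts. A match of letters is a description and no evidence of a bound site.

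With rimonabant the fold change of a gene moved with its GC content. Across the 42 members Spearman's rho between transcript GC and log2 difference was 0.47, and across 23352 genes 0.57. The GC slope of a library was a difference between the top and bottom decile of genes by GC, and no fitted slope. Each decile entered as its median log2 level, after each gene's mean over libraries was subtracted. This GC slope was 0.82 in rimonabant 2, 0.17 in rimonabant 1, and -0.35 and -0.42 in the DMSO libraries, and from -0.23 to 0.19 in the rest. COL18A1, COL26A1 and COL2A1 have transcript GC of 67.2%, 64.2% and 62.3%. The 18 members over 60% GC had a median log2 difference of 0.29 and the 15 under 50% had -0.18. With the GC offset edgeR called 0 collagen genes, and the log2 differences were 0.03 for COL18A1, 0.47 for COL26A1 and 0.28 for COL2A1. Without rimonabant 2 edgeR also called 0, with log2 differences of 0.45, 0.96 and 0.68, and without rimonabant 1 it called 5, COL6A1 and COL8A1 being added. Without either DMSO library it called 0.

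Of 20 tested genes that fold or modify collagen 9 rose and 0 fell with rimonabant, against the same 5.03% and 2.77% of all genes. The log2 difference was below 0 for 9 of the 20, and the median was 0.21. COLGALT1, which adds galactose to collagen, had 84.7 and 99.7 CPM with rimonabant, against 60.9 and 59.9 CPM with DMSO, a log2 difference of 0.56 (SE 0.09, edgeR adjusted p = 0.0120). SERPINH1, the collagen chaperone of the endoplasmic reticulum, had 192 and 235 CPM with rimonabant, against 156 and 151 CPM with DMSO, and rose by 0.42 on the log2 scale. The prolyl hydroxylase subunit P4HB had 467 and 533 CPM with rimonabant, against 383 and 367 CPM with DMSO, and FKBP10, a prolyl isomerase of the same compartment, rose by 0.51 on the log2 scale. The groups did not overlap for these 4 genes. With the GC offset edgeR called 0 genes of the whole table for rimonabant, these included.

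Of 15 tested genes that trim or cross-link collagen 1 rose with rimonabant, against 5.03% of all genes called higher. It was the transglutaminase TGM2, with 34.0 and 38.4 CPM with rimonabant, against 16.4 and 12.5 CPM with DMSO. Of 11 tested collagen receptors 1 rose, the kinase DDR1, by 0.50, against the same 5.03%. Of 11 tested genes of collagen breakdown 3 rose, against the same 5.03%. They were the gelatinase MMP9 by 1.71 on the log2 scale, the protease inhibitor TIMP1 by 0.50 and the dipeptidase PEPD by 0.42. Of 14 tested fibril partners, such as small proteoglycans, 0 were called by edgeR, with 1 at an unadjusted p under 0.05, against 24.8% of all genes. The GC offset, which left 0 calls for rimonabant, also ended the calls of TGM2, DDR1, MMP9, TIMP1 and PEPD. In colchicine edgeR called 0 genes of these 5 lists, while 15 of 20 folding genes were at an unadjusted p under 0.05, 10 higher and 5 lower, against 17.5% of all genes.

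In the remaining 5 comparisons edgeR called 0 collagen genes. With rottlerin 0.00816% of all genes were called, and with epirizole, Ly-294002, moxifloxacin and vardenafil 0%. Collagen genes at an unadjusted p under 0.05 numbered 13 for rottlerin, 9 for moxifloxacin, 5 for Ly-294002, 4 for vardenafil and 3 for epirizole, against 14.8%, 11.9%, 4.69%, 5.22% and 5.26% of all genes. DESeq2 called 4 collagen genes for rottlerin (COL2A1, COL19A1, COL4A3 and COL4A4), 1 for moxifloxacin (COL2A1) and 0 for the others. The shares above are from edgeR and are no background for these counts, since DESeq2 also called more of all genes, as for colchicine. The DESeq2 counts thus do not show if collagen genes stood out from all genes.

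The members with the smallest p-values for rottlerin were COL2A1, COL19A1 and COL4A4, the last at 1.18 on the log2 scale (edgeR adjusted p = 0.109). Without rottlerin 1 COL2A1 was called, at a log2 difference of 0.71, and without either rimonabant library COL2A1 and COL19A1 were called for rottlerin. All groups share 1 estimate of the spread. For moxifloxacin they were COL2A1, COL5A3 (-3.34, from at most 26 reads) and COL19A1 (-0.52). COL5A3 had 4 and 26 reads in the DMSO libraries, and without DMSO 2 these 2 values were -1.59 and -0.24. For epirizole they were COL2A1, COL26A1 (0.42) and COL19A1 (-0.44), and for Ly-294002 COL26A1 (0.57), COL4A3 (1.23) and COL4A4 (0.74). For vardenafil they were COL18A1 (0.35), COL12A1 (-0.50) and COL9A3 (-1.43). The edgeR adjusted p of the first member was 0.294 for moxifloxacin, 0.901 for epirizole, 0.969 for Ly-294002 and 0.890 for vardenafil. Several of these values moved by over 1.5 times when 1 library was left out, COL19A1 ranging from -0.65 to -0.16 for epirizole and COL4A4 from 0.43 to 1.13 for Ly-294002. COL4A3 also moved, ranging from 0.83 to 1.77 for Ly-294002.

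The number of members on either side of DMSO varied by compound. Members with a log2 difference below 0 numbered 27 of 42 for moxifloxacin (50.7% of all genes), 26 for vardenafil (50.1%), 25 for rottlerin (50.6%), 19 for rimonabant (49.6%), 17 for epirizole (50.1%) and 14 for Ly-294002 (49.9%). With the GC offset they numbered 32, 32, 29, 31, 24 and 17. The shares of all genes just given are from the fit without the offset. With it the median log2 difference over all genes lay between 0.0015 (rottlerin) and 0.018 (moxifloxacin) for these compounds. Members whose 2 compound libraries were both above both DMSO libraries numbered 17 for Ly-294002 (22.3% of all genes), 16 for rimonabant (29.6%), 12 for rottlerin (23.9%), 11 for moxifloxacin (26.1%), 11 for epirizole (20.3%) and 8 for vardenafil (20.7%). Members with both below numbered 15 for rottlerin (23% of all genes), 14 for moxifloxacin (21.5%), 10 for vardenafil (18.5%), 6 for rimonabant (23.1%), 3 for epirizole (17.5%) and 2 for Ly-294002 (16.7%).

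**Figure D3:**
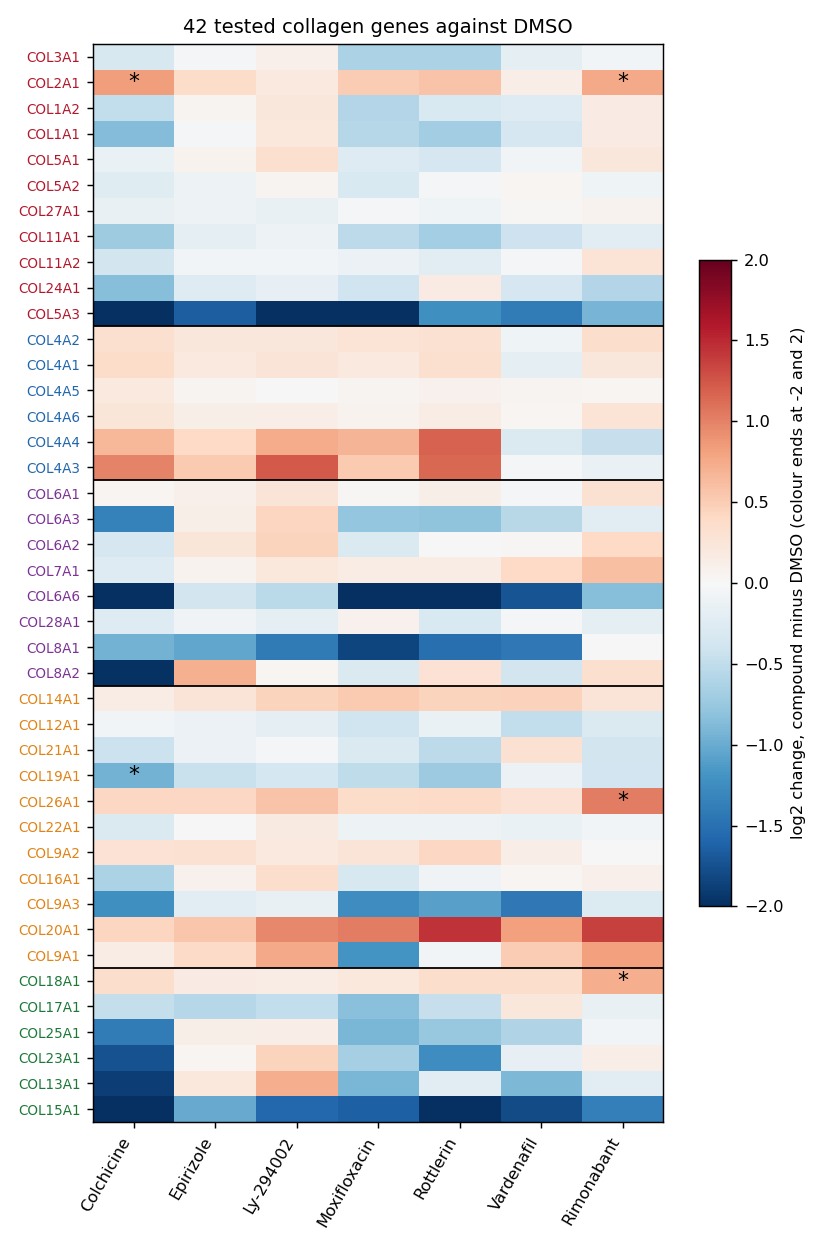
Log2 difference, compound minus DMSO, of the 42 tested collagen genes (rows, grouped and coloured by class) for 7 compounds (columns). Red is higher and blue lower with the compound, and a star marks an edgeR adjusted p under 0.05, reached 2 times with colchicine and 3 times with rimonabant.

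Libraries of the same group also differed. Of the 27 members over 10 CPM, those whose 2 libraries differed more than 1.5-fold numbered 10 for moxifloxacin, 7 for vardenafil, 5 for Ly-294002, 4 for epirizole, 4 for rottlerin, 2 for colchicine, 1 for rimonabant and 2 for DMSO. COL3A1 had 805 and 443 CPM in the moxifloxacin libraries, and COL6A3 had 159 and 55.8 CPM, a 2.85-fold gap. In epirizole 1 all 12 genes of the COL1A1 group in the map of libraries were below their medians and in epirizole 2 all 12 were above. This group was chosen by rho of at least 0.7 to COL1A1 over these same libraries, so its shared direction is largely built in. COL25A1, a transmembrane collagen of nerve and muscle, had 7.32 and 23.9 CPM in the epirizole libraries and 21.4 and 6.94 CPM in the rimonabant libraries. The summed mesenchyme markers were 729 and 641 CPM in the moxifloxacin libraries and 702 and 1061 CPM in the epirizole libraries. The summed endocrine markers were 93.9 and 456 CPM in the moxifloxacin libraries and 403 and 78.8 CPM in the epirizole libraries. The part of either in these gaps was not tested.

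COL1A1 varied across libraries together with some members of several classes. It had a Spearman rho of at least 0.7 with 11 of the 41 other tested members, among them COL1A2 (0.95), COL6A3 (0.90), COL5A1 (0.87) and COL3A1 (0.84). Of the fibril-forming genes, COL11A2 (0.67), COL11A1 (0.58), COL5A2 (0.50), COL5A3 (0.38), COL24A1 (0.15) and COL27A1 (-0.16) were below that. COL2A1 reached 0.7 with COL4A2 (0.80) and COL4A1 (0.71), and its rho with COL1A1 was -0.34 and with COL19A1 -0.70. These values are over 16 libraries that share groups, depth and GC slope, and describe these libraries. Against the summed mesenchyme markers rho was 0.56 for COL1A1, 0.62 for COL3A1, 0.77 for COL13A1 and -0.27 for COL2A1. Against the summed endocrine markers it was -0.52 for COL3A1, -0.87 for COL5A2 and 0.12 for COL2A1. Against the GC slope of the library it was 0.87 for COL2A1, 0.86 for COL18A1, -0.34 for COL1A1 and -0.53 for COL19A1, and the part of the slope in these levels was not tested.

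**Figure D4:**
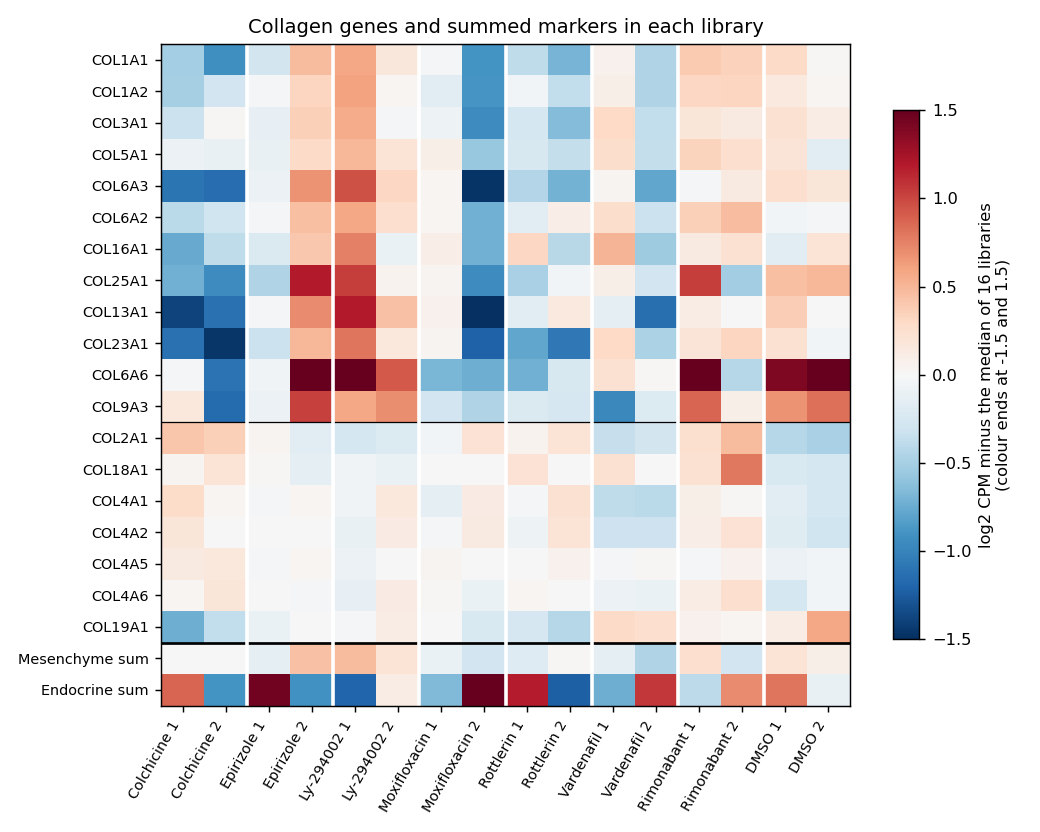
Log2 CPM minus the median of 16 libraries for 19 collagen genes and the summed mesenchyme and endocrine markers, by library, with DMSO at the right. The first 12 rows are COL1A1 and the 11 members with rho of at least 0.7 to it, all above their medians in epirizole 2 and Ly-294002 1 and all below them in epirizole 1 and moxifloxacin 2. They were picked from these same libraries, so their shared direction is largely built in.

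Chains of 1 molecule kept their ratio to different degrees. COL1A1 and COL1A2, which join in type I collagen, had a read ratio of 0.423 (colchicine 2) to 0.730 (epirizole 2), with Pearson's r 0.90 and rho 0.95, and r was 0.92 without the 2 libraries farthest from the median of COL1A1. COL5A1 and COL5A2, partners in type V, had a ratio of 0.684 to 1.33, r 0.57 and rho 0.52, and r was 0.22 without the 2 farthest libraries. COL6A2 and COL6A3 had r 0.87 and rho 0.78, and r 0.78 without the 2 farthest. COL6A1 and COL6A3 had r 0.44 and rho 0.53, r 0.47 without the 2 farthest, and a ratio that ran from 0.614 in Ly-294002 1 to 2.71 in moxifloxacin 2. COL8A1 and COL8A2 had r 0.17 and rho 0.14, r 0.07 without the 2 farthest, and COL9A2 and COL9A3 had r -0.04 and rho -0.11, r 0.04 without them.

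Type IV collagen genes stand in pairs on 3 chromosomes, head to head, so that the stretch between a pair is upstream of both. In RefSeq 126 bases lie between the starts of COL4A1 and COL4A2, 418 between those of COL4A4 and COL4A3 and 379 between those of COL4A6 and COL4A5. The stretches within 250 bases upstream of both starts are shown because each belongs to 2 members. They lie at chr13:110307158-110307283, chr2:227164374-227164455 and chrX:108439588-108439708 (GRCh38.p14, plus strand), and capitals mark a GC box, CCAAT box or TATA box on either strand.
COL4A1/COL4A2: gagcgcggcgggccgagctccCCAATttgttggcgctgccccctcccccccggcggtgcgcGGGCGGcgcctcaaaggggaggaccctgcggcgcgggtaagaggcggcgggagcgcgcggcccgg
COL4A4/COL4A3: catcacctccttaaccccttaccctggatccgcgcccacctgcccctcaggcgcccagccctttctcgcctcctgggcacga
COL4A6/COL4A5: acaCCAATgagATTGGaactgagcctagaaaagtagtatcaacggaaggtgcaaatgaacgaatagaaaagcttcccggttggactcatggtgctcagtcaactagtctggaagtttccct
The first holds 1 GC box and 1 CCAAT box, the second none and the third 2 CCAAT boxes, and their GC contents are 80.2%, 67.1% and 44.6%.

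The pairs differed in how steady their ratio was. COL4A1 and COL4A2, the chains of nearly all basement membranes, ranged over 541 to 868 CPM and 830 to 1203 CPM, and their read ratio stayed between 0.604 and 0.739, with r 0.92 and rho 0.89, and r 0.87 without the 2 farthest libraries. COL4A3 and COL4A4, chains of kidney filter membranes, were low, at 1.40 to 5.46 CPM and 2.02 to 7.68 CPM, with a ratio of 0.565 to 1.09, r 0.86, rho 0.83 and r 0.81 without the 2 farthest. COL4A5 and COL4A6 had a ratio of 2.46 to 3.19 with r 0.63, rho 0.60 and r 0.62 without the 2 farthest. COL4A5 was the steadiest of the 44 members, with 1.19-fold between its lowest and highest library. COL4A1 and COL4A2 overlap each other in the annotation, so reads there may be shared between them if strand was not used in counting.

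**Figure D5:**
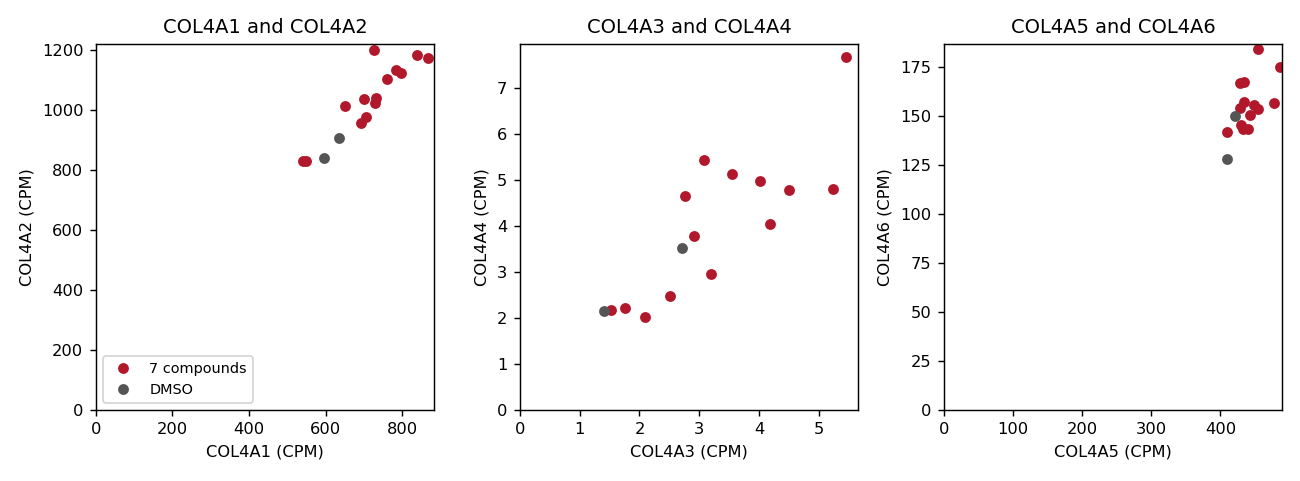
CPM of the type IV genes in each head-to-head pair, one gene on each axis, for 14 compound libraries (red) and 2 DMSO libraries (grey). COL4A1 and COL4A2 lie close to a line (r 0.92), and COL4A5 and COL4A6 spread little on either axis.

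With rottlerin COL4A3 had 3.55 and 5.46 CPM, against 2.70 and 1.40 CPM with DMSO, and COL4A4 had 5.14 and 7.68 CPM, against 3.52 and 2.16 CPM. The log2 differences of 1.14 and 1.18 did not pass the edgeR test. With Ly-294002 they were 1.23 and 0.74 and with colchicine 0.99 and 0.66, while with rimonabant they were -0.14 and -0.47. Of the 6 type IV genes all 6 were above 0 for colchicine, epirizole, Ly-294002, moxifloxacin and rottlerin, 4 for rimonabant and 2 for vardenafil, and 0 passed the edgeR test in any of these comparisons. At an unadjusted p under 0.05 there were 5 for colchicine (17.5% of all genes), 4 for rottlerin (14.8%), 2 for Ly-294002 (4.69%), 2 for moxifloxacin (11.9%) and 2 for rimonabant (24.8%), and DESeq2 called COL4A3 and COL4A4 for rottlerin.

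Among 10544 genes with a median of at least 10 CPM, those that were no collagen and followed a collagen gene most closely were listed by Pearson's r of log2 CPM over 16 libraries. For COL2A1 they included MID1IP1 (0.95) and HYOU1 (0.95), a chaperone of the endoplasmic reticulum. For COL3A1 they were CDON (0.94), UNC5C (0.93), a netrin receptor, and SLF1 (0.92). For COL1A1 they were SEPTIN6 (0.94), PCOLCE (0.92), which speeds the trimming of procollagen, and MMP2 (0.92), a gelatinase. For COL19A1 they were RBMX (0.92), SP2 (0.90) and RN7SKP71 (0.90).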

How the data were processed

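Counts of reads per gene were deposited by the authors as raw, unnormalised values for 62754 genes in 16 libraries. Per the labels' protocols, libraries were made with a KAPA RNA HyperPrep kit with ribosomal RNA depletion, and reads were trimmed with Trimmomatic 0.38, aligned with STAR 2.7.1a, marked for duplicates with Picard 2.20.4 and counted with featureCounts 1.6.0 or HTSeq. The submitters' processing notes name HTSeq and GRCh38. The annotation release, strand setting and handling of duplicates and multiply mapped reads are not given in the sources used here, so overlapping and antisense genes are uncertain.

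Low counts were removed with filterByExpr using the 8 groups. A single fit of the 16 libraries, 1 term for each group, was made in edgeR 4.0.16 (R 4.3.3) with TMM factors, leaving 8 residual degrees of freedom. Each compound, their mean and all 7 jointly were compared with DMSO by the two-sided quasi-likelihood test, with Benjamini-Hochberg adjustment over 24515 genes and a threshold of 0.05. Levels are plain CPM, and TPM was computed from GENCODE 29 union exon lengths. Motifs were searched in RefSeq windows of GRCh38.p14. The floor of 3 reads covers counting error only, since reads carry no molecular identifiers.

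Alternatives were RLE size factors, DESeq2 1.42.0, no filter on low counts, a GC offset, a replicate block, leaving out each library, and the longest transcript as length. Named members were the 4 markers COL2A1, COL3A1, COL1A1 and COL19A1, those past the threshold or among the 3 smallest p-values of a comparison, the 10 with the highest levels and the chains of shared molecules or promoters. COL6A6, COL13A1, COL15A1, COL23A1, COL24A1, COL25A1 and COL27A1 were named after their values were seen. The members, lists and tests were chosen with earlier results of these data known. A gene among those most like COL2A1 is not reported here.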

Additional observations from a re-analysis of the deposited data

How the results depend on the processing

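Counts of collagen genes past the threshold were 2 for colchicine, 3 for rimonabant and 0 elsewhere, and with RLE size factors they were the same. DESeq2 gave 5 for colchicine, 4 for rimonabant, 4 for rottlerin, 1 for moxifloxacin, 4 for the mean of 7 and 11 jointly. With no filter on low counts, which fitted 44689 genes, they were 19 for colchicine, 1 for epirizole, 5 for Ly-294002, 13 for moxifloxacin, 20 for rottlerin, 5 for vardenafil, 7 for rimonabant, 16 for the mean and 29 jointly, and the cause was not tested. The GC offset gave 0 for colchicine and 0 for rimonabant. Leaving out 1 library of the groups compared gave 0 for colchicine, 0 to 1 for rottlerin, 0 to 5 for rimonabant, 0 to 5 for the mean, 0 to 2 jointly and 0 for the others. Leaving out either rimonabant library gave 3 for colchicine and 2 for rottlerin. A group left with 1 library is assumed to vary like the rest. Over all genes, colchicine calls were 48, and 926 with DESeq2, 1568 without the filter, 1 with the GC offset and 5 with the replicate block. For colchicine, DESeq2 and the fit without the filter thus raised the calls over all genes too, not only those of collagen genes. No count over all genes is given for these settings in the other compounds, or without the filter for the mean and joint tests. Collagen counts there do not show if collagen genes stood out. Rimonabant calls were 1913, and 0 with the GC offset and 1090 with the block. The replicate block gave 1 collagen gene for colchicine, COL19A1 being lost at an edgeR adjusted p of 0.0790, and 3 for rimonabant. The labels do not say if same-numbered libraries are paired. In 12 of 28 pairs of groups same-numbered deviations were correlated over 0.1 (r from -0.67 to 0.62, median -0.12). These correlations cannot decide on pairing, since other differences within groups, such as those in endocrine markers, enter the same deviations. With 2 libraries a group, members under 1 CPM are limited by depth.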
